A study of Mus musculus with 6 samples.

Results

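Semaphorins, plexins and neuropilins form a guidance system of ligands and receptors, and their RNA was measured here in mouse lung fibroblast populations and whole lung. The set was defined by gene symbol as 20 semaphorins, 9 plexins and 2 neuropilins. Of these 31 genes, 30 had at least 1 array probe that could be named through its transcript, out of 22911 genes named in this way. Sema4b had none and has no value here. The brightest of a gene's probes stood for the gene, and 15 of the genes had other probes as well.

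Single-colour arrays (6 in all, each with 59305 spots) compared 3 kinds of sample from lungs of male mice, with 2 arrays for each. Myofibroblasts, contractile matrix-producing cells, were sorted by flow cytometry as CD49e+Sca1-Lin- cells from lungs treated with bleomycin, a drug that injures the lung and is used to induce fibrosis. The steady-state fibroblasts came from untreated lungs, gated as CD140a+Lin- cells. Homogenates of untreated lung, which hold all lung cell types, served as controls. The labels state 50000 cells per set, and 5.8 ng of RNA was labelled. Strain, age, the dose and timing of bleomycin, and any pooling of animals are not given in the sources used here. The sorted groups differ in gate and in treatment at once, so the effects of the surface markers and of bleomycin cannot be told apart. Whether the paired arrays of a group came from different animals is also not stated, and the p-values below then cover only sample-to-sample scatter that could be technical.

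Values are relative signals, meaning the scanner's processed intensity divided by the 75th percentile of the same array. They compare one probe across arrays and do not rank genes by abundance. Between 65.5% and 73.4% of spots were well above background on each array, and no spot was saturated. The gating genes followed the labels. Itga5, which encodes CD49e, had relative signals of 3.74 and 5.01 in myofibroblasts, 0.316 and 0.228 in fibroblasts, and 0.369 and 0.241 in homogenates. Pdgfra, which encodes CD140a, read 73.5 and 35.1 in fibroblasts against 9.66 and 10.2 in myofibroblasts. Ly6a, one of the genes detected by antibodies to Sca-1, was lower in myofibroblasts (3.69 and 4.28) than in fibroblasts (12.03 and 19.2) but was above background in both. All 4 myofibroblast marker genes examined, Acta2, Tagln, Postn and Cthrc1, were higher in the sorted myofibroblasts than in fibroblasts, and their summed relative signal was 293 to 327 against 18.3 to 28.5.

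Semaphorins are secreted or membrane-bound ligands that share a sema domain. Class 3 members are secreted and mostly act through a complex of a neuropilin, which binds the ligand, and an A-type plexin, which carries the signal to the cytoskeleton. Classes 4 to 7 are tied to the membrane and bind plexins directly, with Sema7a also known as an integrin ligand. The system is best known for steering axons and vessels. In the lung it is studied in branching, in the vasculature and in the response to injury, where Sema7a has been examined downstream of TGF-beta.

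Between the sorted populations, the changes that passed the test lay in 2 ligands and 2 plexins. Sema7a and Plxnb1 were higher in myofibroblasts, and Plxna2 and Sema3d were lower. Of the 26 members tested, these 4 passed the threshold, a limma adjusted p under 0.05 over all genes tested, which is 15.4% of them. Over all 16008 genes tested 17.2% passed it, with 9.21% higher and 8.01% lower in myofibroblasts, so the share among the members lay near that of all genes. The median log2 difference of the 26 was -0.13, against -0.06 for all genes tested. With arrays scaled by their median, 2 members were higher and 1 lower, and 16.9% of all genes tested passed. Of all calls, 64.6% were then higher in place of 53.5%. With the scaling of the authors' deposited table, 2 members were higher and 8 lower, and 24.3% of all genes tested passed. There 25.4% of all calls were higher.

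The promoters of these 4 genes are shown because they are the members that passed the threshold between the sorted groups. The windows come from RefSeq on GRCm38.p6 and run from 250 bases before the annotated start to 50 bases after it, 5′ to 3′ on the gene's strand. Capitals mark matches to CAGAC, the core of the SMAD element, or to GGAATG, the core of the TEAD element, on either strand.
Sema7a (chr9:57939862-57940161, + strand): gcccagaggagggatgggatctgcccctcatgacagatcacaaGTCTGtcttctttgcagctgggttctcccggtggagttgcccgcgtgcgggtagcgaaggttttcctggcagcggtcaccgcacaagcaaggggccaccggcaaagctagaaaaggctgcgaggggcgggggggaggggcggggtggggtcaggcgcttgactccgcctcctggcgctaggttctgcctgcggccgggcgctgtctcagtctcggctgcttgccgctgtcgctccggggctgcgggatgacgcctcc
Plxnb1 (chr9:109095186-109095485, + strand): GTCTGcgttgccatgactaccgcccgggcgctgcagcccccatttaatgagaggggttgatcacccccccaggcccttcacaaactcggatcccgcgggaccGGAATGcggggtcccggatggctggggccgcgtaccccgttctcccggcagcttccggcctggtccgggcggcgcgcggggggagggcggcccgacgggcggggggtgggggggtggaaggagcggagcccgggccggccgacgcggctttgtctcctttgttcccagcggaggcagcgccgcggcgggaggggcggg
Plxna2 (chr1:194619579-194619878, + strand): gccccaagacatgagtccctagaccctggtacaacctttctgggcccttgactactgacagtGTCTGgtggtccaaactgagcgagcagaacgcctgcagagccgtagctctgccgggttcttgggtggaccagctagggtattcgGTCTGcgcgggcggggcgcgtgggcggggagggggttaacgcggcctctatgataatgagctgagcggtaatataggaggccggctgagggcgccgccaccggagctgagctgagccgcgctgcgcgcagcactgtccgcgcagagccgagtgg
Sema3d (chr5:12382916-12383215, + strand): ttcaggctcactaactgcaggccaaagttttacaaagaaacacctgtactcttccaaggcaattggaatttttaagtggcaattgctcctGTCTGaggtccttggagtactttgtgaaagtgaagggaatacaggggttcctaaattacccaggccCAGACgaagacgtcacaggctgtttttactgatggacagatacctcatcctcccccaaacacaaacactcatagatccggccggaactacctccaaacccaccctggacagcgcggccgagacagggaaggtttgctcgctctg
The CAGAC element, read as GTCTG on the other strand, occurred in all 4 windows. It began 207 bases before the start in Sema7a, 250 before in Plxnb1, 188 and 104 before in Plxna2, and 160 and 94 before in Sema3d. Such a short element is common. It was found in 49.6% of all 32851 windows of this length and in 20 of the 37 windows of the members (54.1%), which cover 26 of the genes. GGAATG lay in the Plxnb1 window 148 bases before the start, and in 3 of the 37 member windows (8.11%) against 14.7% of all windows. The AP-1 element TGANTCA was in none of the 4, in 3 of the 37 (8.11%) and in 7.81% of all windows. These matches describe the letters and no binding.

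**Figure D1:**
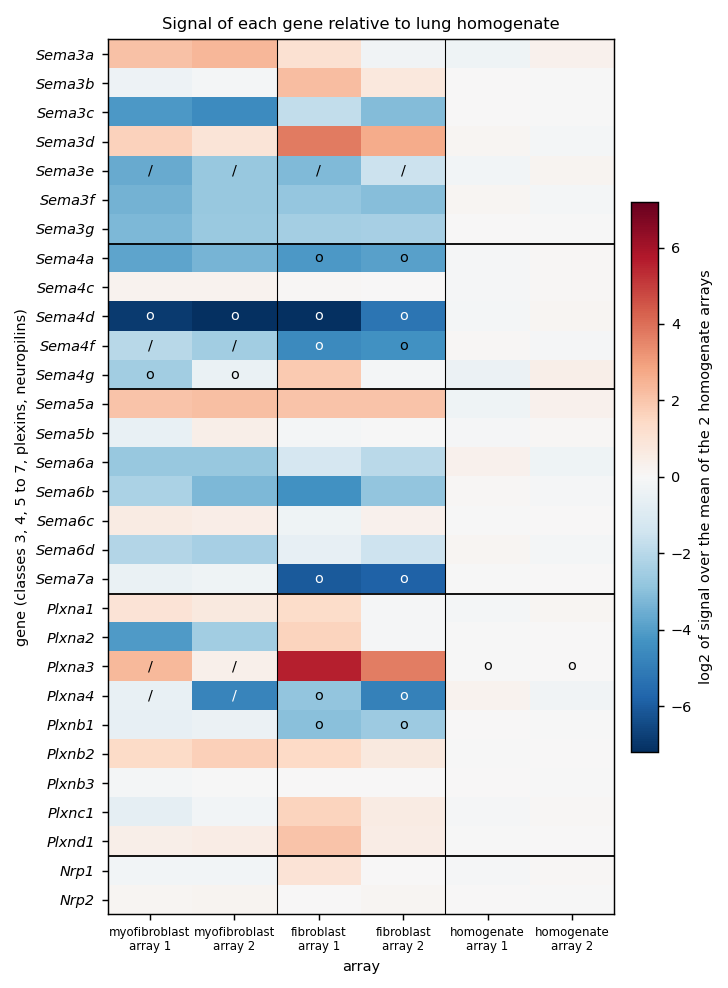
Relative signal of the 30 measured members on each of the 6 arrays, as log2 of the signal over the mean of the 2 homogenate arrays. A circle marks groups with no array well above background and a slash those with 1 of 2. Sema7a and Plxnb1 were near the homogenate level in myofibroblasts and below background in fibroblasts, while Sema4d was below background in both sorted groups.

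Among the secreted class 3 ligands, which bind neuropilins, all 7 were above background on both homogenate arrays, and 6 of them on both arrays of each sorted group. Sema3d, a ligand known from vessel and heart patterning, was the member of this class whose brightest probe passed the threshold between the sorted groups. Its relative signal was 11.4 and 5.44 in fibroblasts, 2.76 and 1.64 in myofibroblasts, and 0.927 and 0.793 in homogenates. Every fibroblast array was above every other array, and the myofibroblast arrays lay between the other groups. The log2 difference of myofibroblasts from fibroblasts was -1.89 ± 0.46 (SE, limma adjusted p = 0.0454). This call was lost in 9 of 19 alternatives. Without myofibroblast array 1 or 2 the limma adjusted p was 0.0830 or 0.187, without fibroblast array 1 it was 0.0888, and without homogenate array 1 or 2 it was 0.108.

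The other class 3 ligands did not pass the threshold between the sorted groups by their brightest probes. Sema3c, a ligand with roles in the outflow tract and lung vessels, read 0.515 and 0.398 in myofibroblasts and 2.64 and 1.03 in fibroblasts, a log2 difference of -1.87 ± 0.48 (limma adjusted p = 0.0523). Sema3a, the founding axon repellent of the class, read 0.310 and 0.369 in myofibroblasts and 0.152 and 0.0605 in fibroblasts, a difference of 1.82 ± 0.50 (limma adjusted p = 0.0602). Sema3b read 1.60 and 1.89 against 9.69 and 3.51, a difference of -1.75 ± 0.50 (limma adjusted p = 0.0672). In these 3 genes the adjusted p lay just above the threshold. By their brightest probes the arrays of the sorted groups did not overlap, which is common with 2 arrays a group. It held for 19 of the 26 members tested here, and for 22 of 30 and 27 of 29 in the comparisons of fibroblasts and myofibroblasts with homogenate. The share over all genes was not counted, so a lack of overlap, here and below, is no support for a difference. Sema3f and Sema3g differed by -0.16 ± 0.32 and -0.53 ± 0.29 on the log2 scale. Sema3e was above background on 1 array of each sorted group and was not tested.

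Class 4 ligands span the membrane and are best known from immune cells and from plexin B signalling. In this class 2 of the 5 measured members were above background on both arrays in each sorted group, against 5 of 5 in homogenates. No member of the class passed the threshold between the sorted groups, where 3 were tested. Sema4g was above background in fibroblasts (0.211 and 0.0532) and on no myofibroblast array (0.0101 and 0.0408). It was at least 2.62-fold lower in the latter by measured means (log2 difference -2.39 ± 0.91, limma adjusted p = 0.125). Sema4a was above background in myofibroblasts (0.0482 and 0.0670) and on no fibroblast array (0.0393 and 0.0456), with a difference of 0.42 ± 0.28 (limma adjusted p = 0.317). Here and below, a lower bound on a fold sets the dim group at the lowest signal well above background on its arrays, unless the probe's own value was higher. Such a bound holds for the processed signal only. Under normexp background correction, an alternative that pulls dim probes together, each bounded member differed by less than its bound.

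Sema7a, the only class 7 semaphorin, is held in the membrane by a lipid anchor and binds plexin C1 and beta 1 integrins. Its relative signal was 0.418 and 0.477 in myofibroblasts, 0.00895 and 0.0105 in fibroblasts, and 0.582 and 0.596 in homogenates. Both fibroblast arrays were not well above background, and both myofibroblast arrays stood just under the homogenate arrays. Sema7a was at least 10.4-fold higher in myofibroblasts than in fibroblasts (log2 difference 5.53 ± 0.24, limma adjusted p = 0.000957). The call was kept in all 18 alternatives that gave a value, with adjusted p-values up to 0.0157. Under normexp background correction, which pulls dim probes together, the log2 difference was 1.57, a smaller fold than the bound. Against homogenate the myofibroblast value differed by -0.40 ± 0.24 (limma adjusted p = 0.270).

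Leukocytes also make Sema7a, and their markers were followed beside it. Ptprc, the pan-leukocyte gene for CD45, read 0.0117 and 0.0674 in myofibroblasts, where 1 of 2 arrays was above background, and 0.00840 and 0.00971 in fibroblasts. In homogenates it read 23.4 and 23.7. Cd68, a macrophage gene, read 0.774 and 0.612 in myofibroblasts, 0.924 and 0.631 in fibroblasts, and 8.53 and 7.80 in homogenates. Cd3e, a T cell gene, read 0.331 and 0.336, 0.413 and 0.427, and 1.97 and 2.16 in the same order. Both were higher in homogenates than in either sorted group. The probe of Itgam read 136 to 173 over all arrays, and that of Csf1r read 18.6 to 24.4. Neither of these probes differed between the groups in the way that Ptprc did.

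The remaining class 5 and class 6 ligands gave no call between the sorted groups by their brightest probes. Sema5a, which carries thrombospondin repeats, read 2.23 and 2.37 in myofibroblasts and 2.18 and 2.25 in fibroblasts, a difference of 0.05 ± 0.30. Sema6a and Sema6d, transmembrane ligands of A-type plexins, gave log2 differences of -1.13 ± 0.37 and -1.22 ± 0.37 (limma adjusted p = 0.0876 and 0.0750). A second Sema6d probe gave -0.08 ± 0.28. Sema6b and Sema6c gave 0.86 ± 0.59 and 0.53 ± 0.29, and Sema5b gave 0.00 ± 0.37.

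**Figure D2:**
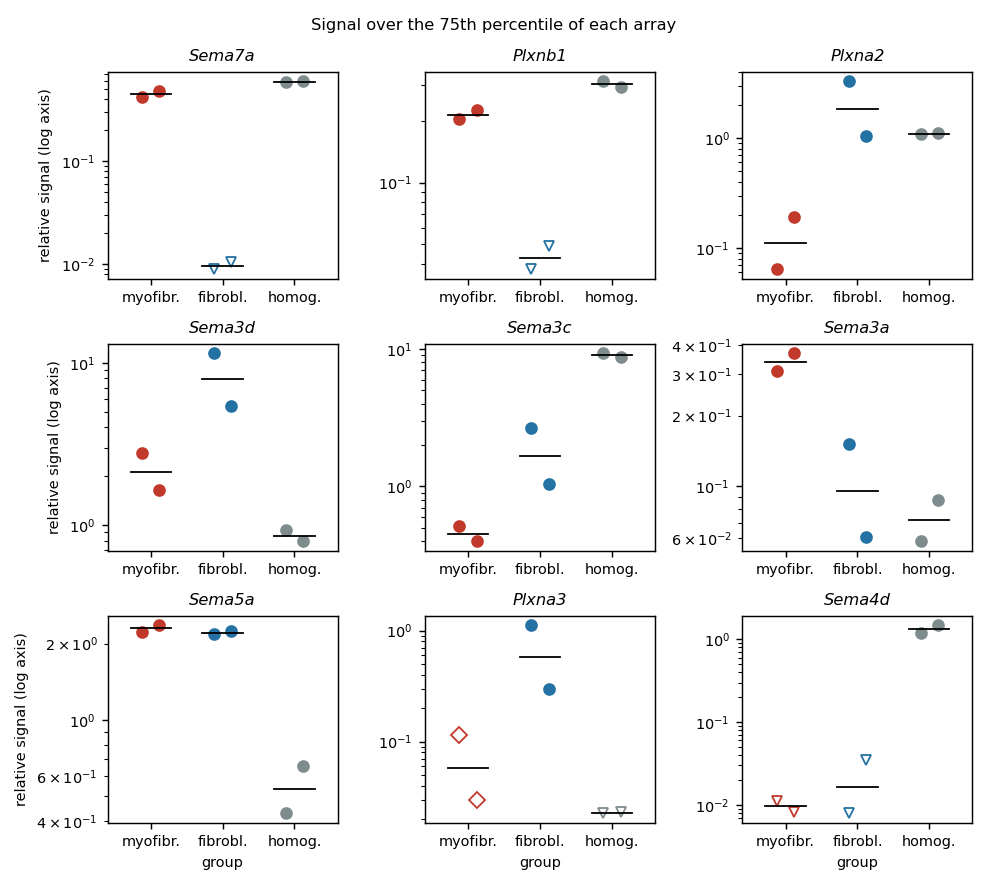
Relative signal (log axis) of 9 members on each array, by group, with the mean of the log values as a line. Open triangles mark a group with no array well above background and open diamonds a group with 1 of 2. Sema7a and Plxnb1 separate fibroblasts from both other groups, and Plxna2 separates myofibroblasts from both others.

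Among the plexins, the receptors that carry the signal, 1 was higher and 1 lower in myofibroblasts than in fibroblasts, of 8 tested. Plxnb1, the main receptor of Sema4d, had relative signals of 0.203 and 0.227 in myofibroblasts, 0.0377 and 0.0492 in fibroblasts, and 0.312 and 0.294 in homogenates. As with Sema7a, no fibroblast array was above background. Plxnb1 was at least 4.88-fold higher in myofibroblasts (log2 difference 2.32 ± 0.26, limma adjusted p = 0.00588). The call held in all 18 alternatives that gave a value, with adjusted p-values up to 0.0391. Under normexp background correction the log2 difference was 0.64, a smaller fold than the bound.

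Plxna2, a co-receptor for class 3 ligands and a direct receptor of Sema6a, went the other way. It read 0.0638 and 0.190 in myofibroblasts, 3.29 and 1.04 in fibroblasts, and 1.09 and 1.11 in homogenates. Both myofibroblast arrays were below all other arrays, and the fibroblast arrays spanned the homogenate level. The log2 difference from fibroblasts was -4.07 ± 0.72 (limma adjusted p = 0.0210). A second probe of the gene gave -4.42 ± 0.58 (limma adjusted p = 0.0102 in a fit of all probes). The call was lost in 4 of 19 alternatives. The limma adjusted p was 0.0771 without myofibroblast array 1, 0.0568 without fibroblast array 1, 0.0587 without homogenate array 1 and 0.0588 without homogenate array 2.

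Plxna3, another A-type co-receptor, read 0.114 and 0.0298 in myofibroblasts, 1.12 and 0.297 in fibroblasts, and 0.0227 and 0.0231 in homogenates. The homogenate arrays were not above background, and 1 of the myofibroblast arrays was. The difference between the sorted groups was -3.30 ± 0.85 (limma adjusted p = 0.0521). A second probe of Plxna3 gave -0.42 ± 0.94 for the same difference. Plxnc1, the plexin that binds Sema7a, read 0.291 and 0.392 in myofibroblasts and 1.37 and 0.663 in fibroblasts, a difference of -1.50 ± 0.41 (limma adjusted p = 0.0611).

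The other tested plexins gave smaller values. Plxnd1, the receptor of Sema3e on endothelium, differed by -0.83 ± 0.51, Plxna1 by 0.21 ± 0.50, Plxnb2 by 0.49 ± 0.33 and Plxnb3 by -0.11 ± 0.23. Plxna4 was above background on 1 of 2 myofibroblast arrays (0.197 and 0.0108) and on no fibroblast array, and was not tested. Neuropilin 1, the ligand-binding partner for Sema3a and also a VEGF co-receptor, read 18.0 and 18.0 in myofibroblasts and 39.7 and 20.5 in fibroblasts, with 19.5 and 21.3 in homogenates. Its log2 difference between the sorted groups was -0.67 ± 0.37 (limma adjusted p = 0.245).

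**Figure D3:**
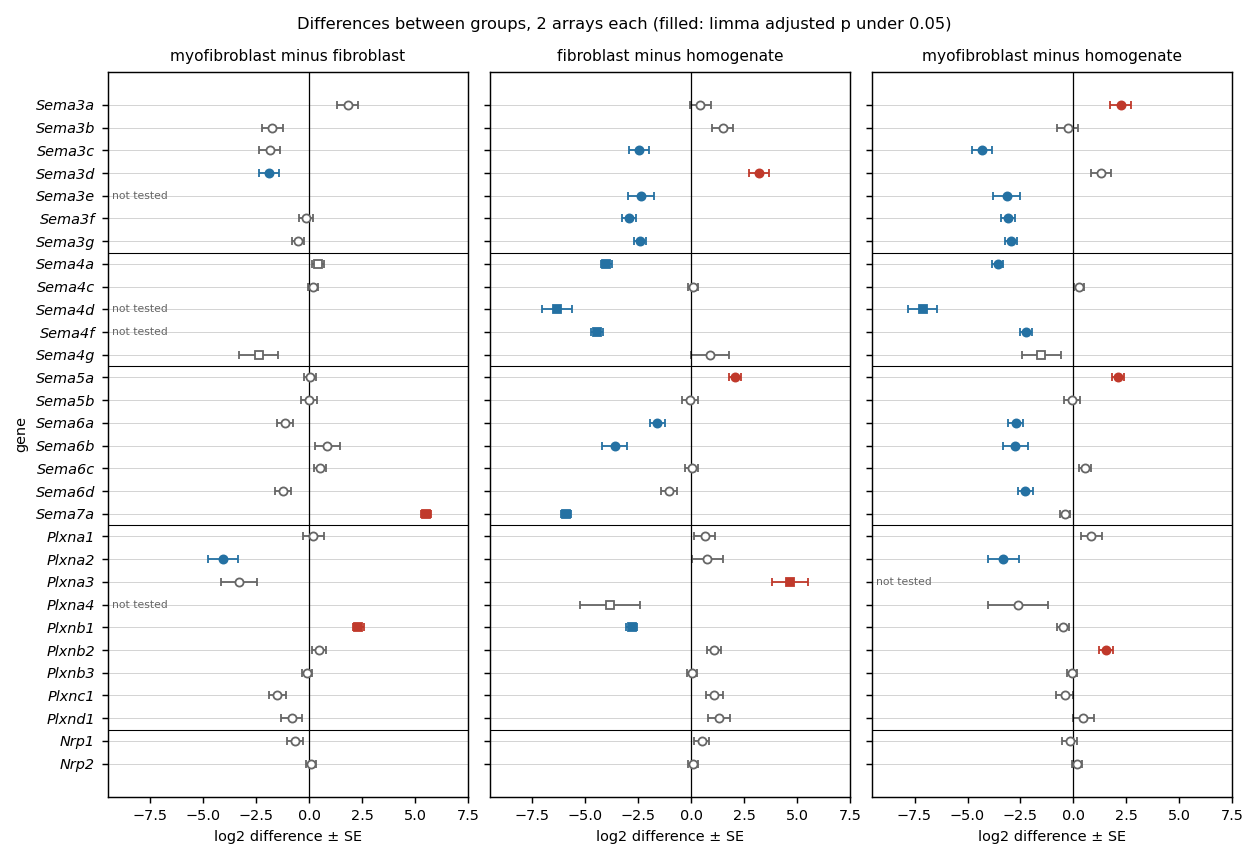
Log2 difference with its standard error for each member in the 3 comparisons, 2 arrays per group. Filled points passed limma's adjusted p under 0.05, and squares are members with no array above background in 1 of the groups, whose plotted difference is the fitted one and no bound. In both comparisons with homogenate most filled points of the semaphorins lie to the left of 0.

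The spread between the paired fibroblast arrays limits these comparisons. Of the 23 members above background on both fibroblast arrays, 11 were more than 2-fold apart, and 10 of those 11 were brighter on array 1. Of all genes above background on both, 23.5% were more than 2-fold apart. The standard deviation of the gap was 0.876 for the members and 0.876 for all genes. The median gap of the 23 was 0.89 on the log2 scale, against 0.16 for all 15058 genes measured on both arrays. In myofibroblasts 1 of 24 members was over 2-fold apart (7.84% of all genes), and in homogenates 0 of 29 (2.83% of all genes). Without fibroblast array 2, 13 members passed the threshold between the sorted groups, 3 higher and 10 lower, and 34.3% of all genes did. Without fibroblast array 1, 3 were higher and none lower. With myofibroblast array 1 or either homogenate array left out, 2 members were called, both higher.

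**Figure D4:**
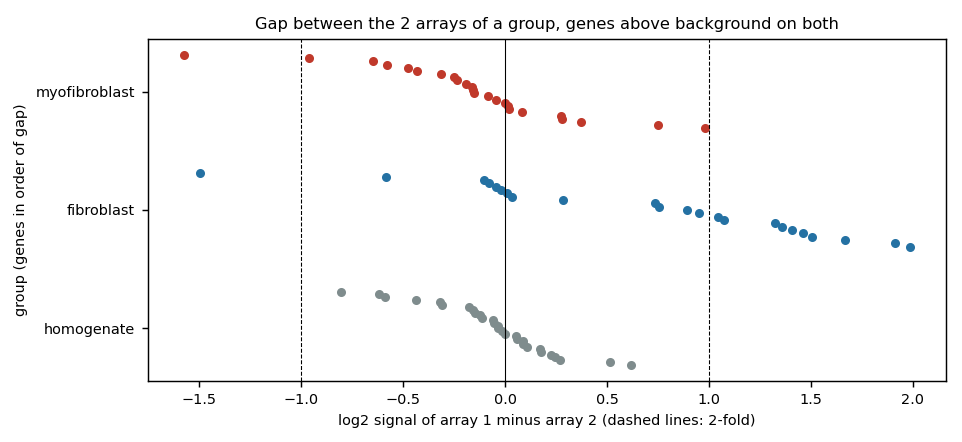
Log2 signal of array 1 minus array 2 for each member above background on both arrays of a group, with dashed lines at 2-fold. The fibroblast points are shifted to the right, with 11 of 23 beyond 2-fold, while 1 of 24 myofibroblast points and no homogenate point lie beyond it. Over all genes the shares beyond 2-fold were 23.5% in fibroblasts, 7.84% in myofibroblasts and 2.83% in homogenates.

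Of the 19 semaphorins tested, 10 were lower in fibroblasts than in homogenate and 2 were higher. Over all members, 3 were higher and 11 lower of 30 tested, against 8.09% higher and 11.8% lower of all genes tested (19.9% in all). The median log2 difference of the 30 was 0.02, against 0.03 for all genes tested, with 16 differences above 0 and 14 below. The higher members were Sema3d, Sema5a and Plxna3. The lower ones were Sema3c, Sema3e, Sema3f, Sema3g, Sema4a, Sema4d, Sema4f, Sema6a, Sema6b, Sema7a and Plxnb1. Homogenate mixes cell types, so fewer cells of a type and less RNA per cell cannot be told apart.

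Sema4d, the immune semaphorin CD100, showed the largest lower value by the processed signal. It read 1.20 and 1.48 in homogenates, 0.00793 and 0.0345 in fibroblasts, and 0.0112 and 0.00817 in myofibroblasts. No array of either sorted group was above background. Sema4d was at least 31.04-fold lower in fibroblasts (limma adjusted p = 0.00281). Sema4a, another ligand of immune cells, read 0.654 and 0.707 in homogenates and was at least 15.9-fold lower in fibroblasts (limma adjusted p = 0.000640). Sema4f read 0.234 and 0.208 in homogenates, with 0.00914 and 0.0109 in fibroblasts, and was at least 5.14-fold lower there (limma adjusted p = 0.000511). Under normexp background correction the log2 differences were -2.69 for Sema4d, -1.70 for Sema4a and -0.75 for Sema4f. These are smaller folds than the bounds.

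Sema7a was at least 13.7-fold lower in fibroblasts than in homogenates, from the values given above (limma adjusted p = 0.000178). Plxnb1 was at least 6.87-fold lower (limma adjusted p = 0.00161). With normexp background correction the log2 differences were -1.805 for Sema7a and -0.805 for Plxnb1, smaller folds than these bounds. Plxna4 read 0.342 and 0.240 in homogenates and 0.0396 and 0.00996 in fibroblasts, at least 6.68-fold lower by measured means, and did not pass the test (limma adjusted p = 0.126). It did pass with a floor under dim signals, with only the 4 arrays of the comparison fitted, and with a replicate block. With normexp background correction its log2 difference was -0.93, and it did not pass.

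Sema3f, a neuropilin 2 ligand, read 2.24 and 1.86 in homogenates and 0.297 and 0.244 in fibroblasts, a log2 difference of -2.93 ± 0.32 (limma adjusted p = 0.00283). Sema3g, known from endothelium, read 0.957 and 0.919 against 0.173 and 0.176, a difference of -2.43 ± 0.29 (limma adjusted p = 0.00360). Sema3c was highest in homogenates, at 9.33 and 8.78, and fibroblasts differed by -2.45 ± 0.48 (limma adjusted p = 0.0199). For these 3 ligands the homogenate arrays were above all sorted arrays.

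Sema6b, a ligand of plexin A4, read 6.32 and 5.59 in homogenates and 0.290 and 0.821 in fibroblasts, a difference of -3.61 ± 0.59 (limma adjusted p = 0.0107). Sema6a read 5.35 and 3.49 against 1.84 and 1.10, a difference of -1.60 ± 0.37 (limma adjusted p = 0.0335). A second Sema6a probe gave -1.99 ± 0.86 and did not pass (limma adjusted p = 0.189 in a fit of all probes). Sema3e read 0.274 and 0.371 against 0.0349 and 0.108, a difference of -2.37 ± 0.62 (limma adjusted p = 0.0499). In each of them both homogenate arrays exceeded both fibroblast arrays. The last 2 calls were each lost in 10 alternatives. Sema6d was not called, with a difference of -1.04 ± 0.37 (limma adjusted p = 0.115). A second probe of Sema6d gave -1.82 ± 0.28 (limma adjusted p = 0.00963 in a fit of all probes).

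In the other direction, Sema3d was higher in fibroblasts than in homogenates by 3.20 ± 0.46 on the log2 scale (limma adjusted p = 0.00695). Plxna3 was at least 14.8-fold higher by its brightest probe (limma adjusted p = 0.0156), while its second probe gave 3.06 ± 0.94 and did not pass (limma adjusted p = 0.0845 in a fit of all probes). With normexp background correction the brightest Plxna3 probe gave a log2 difference of 1.65, a smaller fold than the bound. Sema5a read 0.430 and 0.660 in homogenates, and fibroblasts were higher by 2.06 ± 0.30 (limma adjusted p = 0.00702). A second Sema5a probe gave 1.87 ± 0.40 (limma adjusted p = 0.0280 in a fit of all probes). Sema3d and Sema5a were the ligands called higher by their brightest probe. Sema3b, at 2.18 and 2.02 in homogenates, differed by 1.47 ± 0.50 and was not called (limma adjusted p = 0.104).

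Of the 14 calls against homogenate, 7 were kept in every alternative that tested them: Sema3f, Sema3g, Sema4a, Sema4d, Sema4f, Sema7a and Plxnb1. All of these but Sema3f and Sema3g were not tested where a probe had to be above background on all 4 arrays of the comparison. The others passed the threshold of 0.05 no longer when 1 array was left out, each with limma adjusted p-values as follows. Without homogenate array 1 the value was 0.111 for Sema3c, 0.0626 for Sema5a, 0.0690 for Sema6b, 0.0814 for Plxna3, 0.152 for Sema3e and 0.205 for Sema6a. Without homogenate array 2 it was 0.107 for Sema3c, 0.0560 for Sema3d, 0.0630 for Sema6b, 0.0849 for Plxna3, 0.233 for Sema3e and 0.0896 for Sema6a. Without fibroblast array 1 it was 0.0612 for Plxna3 and 0.111 for Sema3e, and without fibroblast array 2 it was 0.0558 for Sema6a. Without myofibroblast array 1 or 2, which enter only through the spread, it was 0.0743 or 0.0735 for Sema3e and 0.0701 or 0.0695 for Sema6a.

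Of the markers of other lung cells, 5 of 6 endothelial, 6 of 6 epithelial and 2 of 3 mesothelial genes were called lower in fibroblasts than in homogenates, with Tek and Wt1 not called. Of the leukocyte markers given above, Ptprc, Cd68 and Cd3e were called lower, and Itgam and Csf1r were not called. Of the 3 nerve and Schwann cell genes 1 was tested and none called. The summed relative signal of 6 endothelial markers was 1.27 to 1.52 in fibroblasts, 0.128 to 0.223 in myofibroblasts and 49.1 to 52.1 in homogenates. In fibroblasts that sum came mostly from Tek, at 1.37 and 1.07, while Emcn and Tie1 were above background on no array. The 6 epithelial markers summed to 2.69 to 2.88 in fibroblasts, 1.20 to 1.65 in myofibroblasts and 224 to 225 in homogenates, and Cdh1 was above background on no sorted array. The 3 mesothelial markers summed to 0.345 to 0.929, 0.173 to 0.437 and 2.79 to 2.89 in the same order, with Upk3b below background in both sorted groups. The 3 nerve and Schwann cell markers were low in all groups, with sums of 0.114 to 0.298. The 5 fibroblast markers summed to 257 to 395 in fibroblasts, 877 to 905 in myofibroblasts and 32.7 to 38.3 in homogenates. In myofibroblasts that sum came mostly from Col1a1 (325 and 345) and Col1a2 (507 and 515), both called higher there than in fibroblasts. Pdgfra was called lower in myofibroblasts. Pdgfrb was not called, nor was Tcf21, at 1.98 and 1.93 against 3.09 and 9.40 in fibroblasts. The part of these cell types in the semaphorin differences from homogenate was not tested.

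Myofibroblasts were compared with the same homogenate arrays, so the results of both comparisons share those samples. Here 3 members were higher and 11 lower of 29 tested, against 11.9% higher and 15% lower of all genes tested (26.9% in all). The higher members were Sema3a, Sema5a and Plxnb2. The lower ones were Sema3c, Sema3e, Sema3f, Sema3g, Sema4a, Sema4d, Sema4f, Sema6a, Sema6b, Sema6d and Plxna2. The median log2 difference of the 29 was -0.41, against -0.01 for all genes tested. With arrays scaled by their median, 5 members were higher and 11 lower, and 31.7% of all genes tested passed. Of all calls, 64.9% were then higher in place of 44.3%. With the scaling of the authors' deposited table, 2 members were higher and 13 lower, and 33.6% of all genes tested passed. There 20.6% of all calls were higher.

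Sema4d was at least 32.9-fold lower in myofibroblasts than in homogenate (limma adjusted p = 0.00167). With normexp background correction its log2 difference was -2.83, a smaller fold than the bound. By the processed signal Sema3c had the next lowest value, with a log2 difference of -4.32 ± 0.48 (limma adjusted p = 0.00256). Sema4a, Sema3f and Sema3g differed by -3.58 ± 0.28, -3.08 ± 0.32 and -2.96 ± 0.29. Sema4f differed by -2.25 ± 0.28 with 1 of 2 myofibroblast arrays above background. Sema6a differed by -2.73 ± 0.37 (limma adjusted p = 0.00492). These 7 calls were kept in every alternative that tested them, and Sema4d and Sema4f were not tested where all 4 arrays had to be above background.

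Sema6d, a ligand of plexin A1, read 3.13 and 2.64 in homogenates and 0.660 and 0.544 in myofibroblasts, a log2 difference of -2.26 ± 0.37 (limma adjusted p = 0.00957). Its second probe gave -1.90 ± 0.28 (limma adjusted p = 0.00721 in a fit of all probes). Sema6b differed by -2.75 ± 0.59 (limma adjusted p = 0.0227), with myofibroblast values of 1.24 and 0.631. Sema3e differed by -3.16 ± 0.62 (limma adjusted p = 0.0174), with 1 of 2 myofibroblast arrays above background. Plxna2 was the plexin that was lower, with a difference of -3.32 ± 0.72 (limma adjusted p = 0.0244). Sema4g, above background on no myofibroblast array, was at least 1.43-fold lower by measured means and did not pass the test (limma adjusted p = 0.264). Under normexp background correction its log2 difference turned to 0.0412.

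Sema3a was higher in myofibroblasts than in homogenate, where it read 0.0583 and 0.0877, by 2.24 ± 0.50 on the log2 scale (limma adjusted p = 0.0254). Its second, dimmer probe gave -0.08 and was not tested. Plxnb2, the receptor of Sema4c and a widely expressed plexin, read 2.18 and 2.70 in myofibroblasts and 0.810 and 0.844 in homogenates, a difference of 1.55 ± 0.33 (limma adjusted p = 0.0236). Sema5a was higher by 2.11 ± 0.30 (limma adjusted p = 0.00568). Its second probe gave 1.19 ± 0.40 and did not pass (limma adjusted p = 0.0827 in a fit of all probes). By the brightest probes, all myofibroblast arrays exceeded all homogenate arrays in these 3 genes.

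Of these 14 calls, 7 depended on single arrays. The Plxnb2 call was also lost with the scaling of the authors' deposited table (log2 difference 1.05, limma adjusted p = 0.0570). Without homogenate array 1 the limma adjusted p was 0.144 for Sema3a, 0.0738 for Sema3e, 0.0521 for Sema5a, 0.117 for Sema6b, 0.0751 for Sema6d, 0.111 for Plxna2 and 0.138 for Plxnb2. Without homogenate array 2 it was 0.0871 for Sema3a, 0.106 for Sema3e, 0.107 for Sema6b, 0.0602 for Sema6d, 0.119 for Plxna2 and 0.132 for Plxnb2. Without myofibroblast array 1 it was 0.0844 for Sema3a, 0.0831 for Sema3e, 0.0933 for Plxna2 and 0.0686 for Plxnb2. Without myofibroblast array 2 it was 0.117 for Sema3a, 0.110 for Sema6b, 0.0582 for Sema6d and 0.115 for Plxnb2.

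For some genes the choice of probe set the result. The brightest probe of Nrp2, neuropilin 2, read 752 and 751 in homogenates, 771 and 815 in fibroblasts and 833 and 860 in myofibroblasts. Its mean signal ranked 16 of 56605 probes, and its highest array was 1.15 times its lowest. A second Nrp2 probe read 8.58 and 7.32 in myofibroblasts, 14.4 and 6.15 in fibroblasts, and 2.53 and 2.07 in homogenates. By that probe Nrp2 was higher than in homogenate by 2.04 ± 0.45 in fibroblasts (limma adjusted p = 0.0325) and by 1.79 ± 0.45 in myofibroblasts (limma adjusted p = 0.0396), in a fit of all probes. Its brightest probe gave 0.08 ± 0.23 and 0.17 ± 0.23. The remaining probe read 1.02 and 0.999 in myofibroblasts, 0.0665 and 0.522 in fibroblasts, and 0.180 and 0.115 in homogenates, and passed no test.

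Sema4c, a ligand of plexin B2, showed the same kind of probe. Its brightest one ranked 28 of 56605, with relative signals of 635 to 807 and a highest array 1.27 times the lowest. The other Sema4c probes read 0.411 to 1.07 and 0.296 to 0.486 over the 6 arrays, and none of the 3 passed a test. The brightest probes of both genes were almost flat over the 6 arrays. Whether they measure the Nrp2 and Sema4c transcripts could not be settled from the files, so their values do not show that these genes were unchanged.

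Sema6c and Sema3f also had probes that differed. The second Sema6c probe read 1.01 and 0.736 in myofibroblasts, 3.36 and 2.14 in fibroblasts, and 0.827 and 0.734 in homogenates. It gave -1.64 ± 0.34 between the sorted groups (limma adjusted p = 0.0334) and 1.78 ± 0.34 for fibroblasts over homogenate (limma adjusted p = 0.0202), where the brightest probe gave 0.53 ± 0.29 and 0.01 ± 0.29. The second Sema3f probe was above background in myofibroblasts (0.0723 and 0.0513) and not in fibroblasts (0.00832 and 0.00968), with 0.356 and 0.284 in homogenates. It passed the test between the sorted groups (limma adjusted p = 0.00646), and both Sema3f probes were lower in each sorted group than in homogenate. The call of a gene's further probes departed from that of its brightest probe in 2 of 17 cases when the sorted groups were compared, in 5 of 17 for fibroblasts against homogenate and in 2 of 16 for myofibroblasts against homogenate. None was called in the opposite direction.

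**Figure D5:**
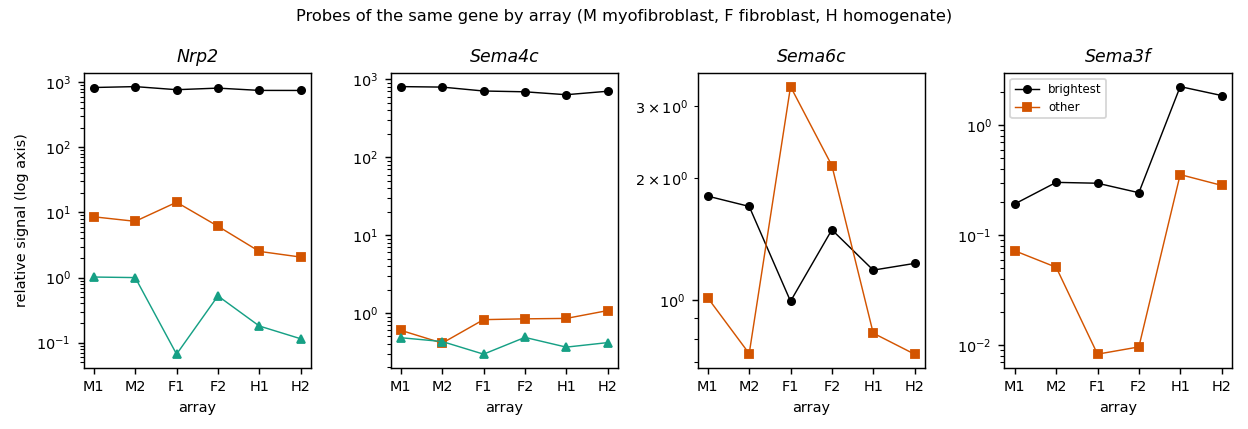
Relative signal (log axis) of every probe of Nrp2, Sema4c, Sema6c and Sema3f on each array, where black circles are the brightest probe of the gene and orange squares and green triangles its other probes. The brightest Nrp2 and Sema4c probes are flat over the 6 arrays, while the second Nrp2 probe is lowest in homogenates.

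A list of 35 other genes of semaphorin signalling, covering cell adhesion partners, intracellular effectors and VEGF receptors that share neuropilins, was read beside the members. All had a named probe. Between the sorted groups 6 were higher and 2 lower in myofibroblasts of 30 tested (26.7%, against 17.2% of all genes), with a median of 0.45. Chl1, an L1-family adhesion molecule that works with neuropilin 1, read 6.24 and 5.91 in myofibroblasts, 0.126 and 0.0722 in fibroblasts, and 0.134 and 0.133 in homogenates. Its log2 difference was 5.99 ± 0.33 (limma adjusted p = 0.00132). Mical2, an actin-oxidising enzyme of the family that acts below plexins, read 0.930 and 0.880 against 0.114 and 0.0759 in fibroblasts, a difference of 3.28 ± 0.33 (limma adjusted p = 0.00456). L1cam, which forms a Sema3a receptor with neuropilin 1, was above background in myofibroblasts (0.0845 and 0.0916) and on no fibroblast array, at least 2.05-fold higher (limma adjusted p = 0.00456).

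The 2 partners that were lower in myofibroblasts were Met, the HGF receptor that can pair with plexin B1, and Fyn, a kinase of the Sema3a pathway. Met read 0.00957 and 0.0507 in myofibroblasts, 0.350 and 0.218 in fibroblasts, and 1.31 and 1.44 in homogenates, a difference of -3.65 ± 0.78 between the sorted groups (limma adjusted p = 0.0337). Fyn read 0.230 and 0.220 in myofibroblasts and 0.729 and 0.494 in fibroblasts, a difference of -1.41 ± 0.30 (limma adjusted p = 0.0327). In neither gene did the arrays of the sorted groups overlap, nor did they in 23 of the 30 partners tested.

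Between fibroblasts and homogenate 5 partners were higher and 6 lower of 34 tested (32.4%, against 19.9% of all genes). Nrcam, an adhesion molecule that pairs with neuropilin 2, was higher by 2.96 ± 0.36, with 10.6 and 6.29 in fibroblasts and 1.25 and 0.884 in homogenates. Dpysl3, a collapsin response mediator, was higher by 2.24 ± 0.37. Kdr, the main VEGF receptor of endothelium, was above background on no array of either sorted group and read 6.07 and 5.78 in homogenates, at least 137-fold higher than in fibroblasts. Flt1, another VEGF receptor, was lower by a log2 difference of -7.56 ± 1.16. Between myofibroblasts and homogenate 8 were higher and 7 lower of 34 tested (44.1%, against 26.9% of all genes). Chl1 was higher by 5.51 ± 0.33 and Nrcam, at 36.2 and 33.5 in myofibroblasts, by 5.05 ± 0.36. Kdr was at least 147-fold lower and Flt1 differed by -7.40 ± 1.16. The endothelial marker sums given above moved with Kdr and Flt1, and their part in these values was not tested.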

How the data were processed

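The deposited scanner files hold spot intensity as Agilent Feature Extraction 12.0.3.1 wrote it, per the file headers and the submitters' processing notes. Each intensity used here is the processed signal, already background-subtracted and detrended within its array, per the file headers. A second deposited file gives the authors' scaled intensity, which equals the processed signal times 1 constant per array. Extraction of RNA is not described in the sources used here.

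Log2 processed signal was scaled to the 75th percentile of each array, outlier spots were dropped and spots of a probe averaged. Probes were named through RefSeq transcripts without versions (32994 of 56605 matched 1 gene). The brightest probe stood for a gene. Groups and replicate numbers came from the labels. A gene entered a comparison when its probe was above background on both arrays of either group. Differences were tested two-sided with limma 3.58.1 in R 4.3.3 in 1 fit of all 6 arrays (3 residual degrees of freedom, 5.57 with the prior), with Benjamini-Hochberg adjustment over all genes that entered. The fit was tested on simulated data. All members were named, and the partners with the largest called changes (up to 3 in each direction for the sorted groups, 2 elsewhere). The members, the partner and marker lists, the motifs and the tests were chosen with earlier results of these data known. Of the leukocyte markers, 1 is not reported here. All arrays shared 1 slide and 1 scan. Sorted samples lay in 1 slide row and homogenates in the other, so row and homogenate cannot be told apart. With 2 arrays per group, their number limits the precision. Alternatives covered background correction, scaling, filters, the probe rule, the arrays fitted, the variance model, the threshold, a replicate block and leaving out each array. Using the second brightest probe of Sema4c and Nrp2, or every probe as its own feature, was chosen after seeing the data.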

Additional observations from a re-analysis of the deposited data

How the results depend on the processing

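The counts of called members moved most between the sorted groups, where the reported count was 4, with 17.2% of all genes called. The count was 10 with the scaling of the authors' deposited table, where 24.3% of all genes were called. With probes above background on all 4 arrays it was 2 (15.2% of all genes), and with a floor under dim signals 8 (19.9%). It was 9 with the mean of a gene's probes (20.8%), 11 at an adjusted p under 0.1 (29.7%) and 2 at 0.01 (4.44%). Leaving out 1 array gave 2 to 13 there, 8 to 19 between fibroblasts and homogenate and 7 to 16 between myofibroblasts and homogenate, with the lone array assumed to vary like the other groups. Between fibroblasts and homogenate, with 14 reported (19.9% of all genes), the count was 7 with all 4 arrays above background (13.8%) and 9 at 0.01 (10.1%). Between myofibroblasts and homogenate, with 14 reported (26.9%), it was 9 at 0.01 (12.1%). The other alternatives left the counts within 1.5 times the reported ones. Over all genes, the calls between the sorted groups fell from 2758 to 1264 when only the 4 arrays of the comparison were fitted and to 1335 with array weights per group, and rose to 7391 and 7648 from 4614 between myofibroblasts and homogenate. The replicate numbers paired nothing visible (correlations of the replicate differences 0.07, -0.01 and 0.04), and with the replicate block the counts were 6, 15 and 15. Of all genes, 13.9%, 18.9% and 23.6% were then called. Among the called or bounded differences recomputed one by one, Sema4g, which was not called, changed sign: against homogenate the myofibroblast difference was 0.0412 under normexp background correction in place of -1.51. Uncalled members near 0 also moved with the scaling: between the sorted groups 12 of 26 differences were above 0 as reported, 7 with the authors' scaling and 13 with median scaling. Dim probes limit the size of the differences given as bounds. Among the members these cover Sema7a, Plxnb1, Sema4a, Sema4d, Sema4f, Sema4g, Plxna3 and Plxna4, each in at least 1 comparison. The bounds hold for the processed signal, and under normexp background correction the differences were smaller than the bounds.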
